A study of Saccharomyces cerevisiae with 27 samples.

Results

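The genes described here move sodium, potassium and protons across the membranes of the yeast Saccharomyces cerevisiae. They were taken by name and number 10 of the 6746 genes in the count table: the sodium pumps ENA1 (YDR040C), ENA2 (YDR039C) and ENA5 (YDR038C), the antiporters NHA1 (YLR138W) and NHX1 (YDR456W), the proton pumps PMA1 (YGL008C) and PMA2 (YPL036W), the potassium transporters TRK1 (YJL129C) and TRK2 (YKR050W), and the potassium channel TOK1 (YJL093C). They were taken by name, with no threshold on a measured value, and were proposed with earlier results of these data known. All 10 passed the filter on low counts, which left 6209 genes tested.

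The libraries came from poly(A) RNA of a wild type and of strains with a substitution in histone H4, with 3 replicates in each of 9 groups. H4-S47D has aspartic acid in place of serine 47, and H4-T30A and H4-T30D have alanine and aspartic acid in place of threonine 30. All 4 strains were grown in YPD, a rich medium, to log phase at 30°C (no stress). Wild type and H4-S47D were also given NaCl at 0.4 M during 15 min (osmostress), and wild type, H4-T30A and H4-T30D were shifted to 39°C for 10 min (heat). All strains were MATa derivatives of BY4741 that carried his3Δ200 and leu2Δ0 next to lys2Δ0 and trp1Δ63, together with ura3Δ0, with met15Δ0 and with MFA1pr-HIS3 at can1. In every strain hht1-hhf1 was replaced by NatMX4 and hht2-hhf2 by a synthetic HHTS-HHFS pair marked with URA3, so that wild type and mutants alike had 1 source of H3 and H4. All 3 mutants were compared with the same non-stressed wild-type libraries, so these comparisons share their controls.

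Library totals ranged from 10212777 to 19503694 counts, and levels are given as CPM, counts scaled by library size and TMM factor. STL1, a glycerol transporter used as a check of the NaCl label, was at 4279 to 5109 CPM in all osmostressed libraries, and HSP26, a small heat shock protein, was at 9449 to 11310 CPM in the heat-stressed wild type. STL1 also stood at 115 CPM in heat-stressed wild-type replicate 3, against 4.88 and 3.68 in the other replicates of that group. TRP1 was at 273 to 320 CPM in non-stressed H4-S47D and at 1.24 to 2.33 CPM in non-stressed wild type, although the labels name the same trp1 deletion in all strains. A difference of H4-S47D from wild type by the histone and by anything else in the strain cannot be told apart here.

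Yeast keeps sodium low and potassium high inside the cell. Pma1, the proton ATPase of the plasma membrane, builds the proton gradient and membrane potential that drive secondary transport, and the Ena P-type ATPases pump sodium out at the cost of ATP. Nha1 exchanges sodium or potassium for protons at the plasma membrane and Nhx1 does so in endosomes, while Trk1 and Trk2 take up potassium and Tok1 lets it out. ENA1 is a known target of the Hog1 kinase through the repressor Sko1, of calcineurin through the factor Crz1, and of the repressors Nrg1 and Mig1.

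The ENA genes lie head to tail on the minus strand of chromosome IV (assembly R64, RefSeq annotation), ENA5 at 527422 to 530697, ENA2 at 531307 to 534582 and ENA1 at 535192 to 538467, with 609 bases between neighbours. Their reading frames are all 3276 bases long and differ at only 77 positions. ENA1 departs from the other copies at 43 of these and ENA5 at 34, while ENA2 has no base of its own: it reads like ENA5 at its start and like ENA1 at its end. The stretches with the most differences show this, with capitals at the positions that differ among the copies, 5′ to 3′ on the coding strand. The first stretch is bases 181 to 270 of the reading frame, at chrIV:538198-538287 in ENA1, chrIV:534313-534402 in ENA2 and chrIV:530428-530517 in ENA5.
ENA1: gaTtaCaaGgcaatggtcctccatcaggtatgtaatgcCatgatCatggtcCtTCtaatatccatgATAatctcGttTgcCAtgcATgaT
ENA2: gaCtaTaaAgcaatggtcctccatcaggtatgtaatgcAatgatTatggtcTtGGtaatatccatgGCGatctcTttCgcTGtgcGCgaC
ENA5: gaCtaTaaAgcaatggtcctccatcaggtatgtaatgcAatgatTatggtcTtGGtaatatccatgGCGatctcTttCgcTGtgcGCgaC
The second stretch is the last 90 bases, at chrIV:535192-535281 in ENA1, chrIV:531307-531396 in ENA2 and chrIV:527422-527511 in ENA5.
ENA1: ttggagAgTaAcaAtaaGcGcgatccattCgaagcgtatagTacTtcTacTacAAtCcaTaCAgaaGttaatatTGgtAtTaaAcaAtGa
ENA2: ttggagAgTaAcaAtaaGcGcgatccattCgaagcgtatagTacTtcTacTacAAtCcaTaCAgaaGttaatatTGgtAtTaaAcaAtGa
ENA5: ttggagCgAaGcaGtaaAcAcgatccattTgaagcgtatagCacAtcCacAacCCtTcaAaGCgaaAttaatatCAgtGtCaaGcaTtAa
ENA1 and ENA2 encode proteins of 1091 residues that are the same at 1078, and ENA1 and ENA5 at 1065.

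These copies limit what a read of 50 bases can tell. Of the 3325 windows of 50 bases that touch each copy, 419 of ENA1, 334 of ENA5 and 0 of ENA2 occur nowhere else in the genome, and 2572 occur in all 3 copies. Yet the ENA2 row held between 2353 and 26665 counts. The study's methods name uniquely mapping reads, but the table gives counts for reads with more than 1 place: of 90 genes without a unique window, 37 had a median of 100 counts or more, and the 4 identical copies of the asparaginase gene ASP3, named here after their counts were seen, had medians of 3275 to 3298. Counting each shared read at every copy would make the ASP3 rows equal, and they were equal in 0 of the 27 libraries. Shared reads were therefore placed at 1 copy or another, and the sum of the 3 ENA rows is the value that does not depend on that placing.

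How the rows divide the sum still carries information. If coverage were even and each shared read were placed evenly, reads from ENA1 alone would give 0.594 ENA5 counts and 0.71 ENA2 counts per ENA1 count, and equal reads from all copies would give 1 of each. In non-stressed wild type there were 0.948, 0.923 and 0.976 ENA5 counts per ENA1 count in replicates 1 to 3, and upon osmostress there were 0.601, 0.606 and 0.599. In wild type, ENA2 counts per ENA1 count were 0.988 to 1.06 without stress and 0.744 to 0.752 upon osmostress. The osmostressed libraries thus lay nearer to the split that ENA1 reads alone would give, though above it for both ratios, and the non-stressed libraries nearer to an equal split. ENA5 counts per ENA1 count in the other non-stressed groups ranged from 0.891 to 0.985, in osmostressed H4-S47D from 0.622 to 0.632, in heat-stressed wild type from 0.676 to 0.725, in H4-T30A from 0.662 to 0.713 and in H4-T30D from 0.754 to 0.759. Neither osmostressed H4-S47D nor heat-stressed H4-T30D overlapped with the wild type under the same stress, but an exact test of 3 against 3 libraries cannot reach 0.05 and none was run. Even coverage was not tested, and 319 of the 419 windows unique to ENA1 begin before base 271 of the gene.

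**Figure D1:**
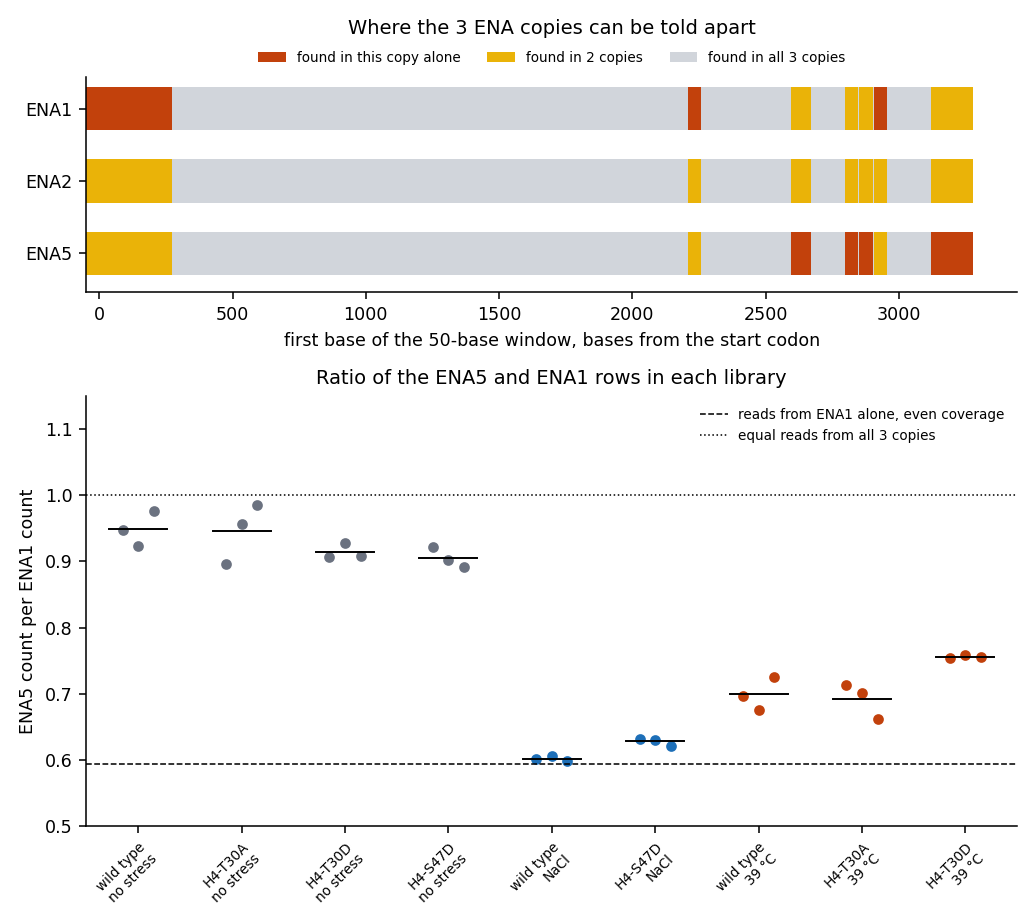
Top, the 50-base windows of each ENA gene by the base at which they begin (bases from the start codon), coloured by how many of the 3 copies hold them; ENA2 has no window of its own. Bottom, ENA5 counts per ENA1 count in each library (points) with group means (lines), between 0.891 and 0.985 in non-stressed, 0.599 and 0.632 in osmostressed and 0.662 and 0.759 in heat-stressed libraries; the dashed line at 0.594 is the split for ENA1 reads alone under even coverage and the dotted line is an equal split.

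The stretches upstream of the copies differ in the same way. The 600 bases before the start codons of ENA2 and ENA5 are identical at 600 of 600 positions, whereas those of ENA1 and ENA2 match at 190 when laid side by side without gaps. In the 1000 bases before each start codon, both strands were searched for the stress response element AGGGG (bound by Msn2 and Msn4), TGACGT of the cyclic AMP response element (bound by Sko1), the Crz1 motif GNGGCTCA and its variant GNGGCGCA, and the heat shock element cores GAANNTTC and TTCNNGAA. They occur in 54.9%, 26.98%, 4.11%, 3.59%, 35.7% and 38.8% of 6015 upstream windows of protein-coding genes. The ENA1 window held AGGGG 651 bases, GAANNTTC 607, GNGGCTCA 537, TGACGT 509 and TTCNNGAA 428 bases before the start codon, and the windows of ENA2 and ENA5 held none of the motifs. To show this, 300 bases of each region are printed 5′ to 3′: the part upstream of ENA1 with all matches (chrIV:538828-539127, minus strand, matches in capitals) and a part upstream of ENA2 (chrIV:534743-535042, minus strand, no match), which is the same in ENA5.
ENA1 upstream: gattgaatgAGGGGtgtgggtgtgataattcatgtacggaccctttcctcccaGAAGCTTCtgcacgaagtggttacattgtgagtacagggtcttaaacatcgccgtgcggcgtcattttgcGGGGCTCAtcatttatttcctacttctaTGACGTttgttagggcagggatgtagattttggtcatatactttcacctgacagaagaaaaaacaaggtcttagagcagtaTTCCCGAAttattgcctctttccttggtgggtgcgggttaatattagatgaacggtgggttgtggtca
ENA2 upstream: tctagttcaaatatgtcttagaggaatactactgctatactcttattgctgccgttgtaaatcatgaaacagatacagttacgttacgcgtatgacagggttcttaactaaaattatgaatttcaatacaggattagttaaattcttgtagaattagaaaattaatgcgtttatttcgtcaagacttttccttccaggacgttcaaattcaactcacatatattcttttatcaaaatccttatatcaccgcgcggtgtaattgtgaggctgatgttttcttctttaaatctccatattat
Among the other genes, AGGGG matched upstream of NHA1, PMA1, PMA2, TRK1 and TRK2, TGACGT upstream of PMA1 and TRK1, and GNGGCTCA upstream of none. The heat shock element core GAANNTTC matched upstream of NHX1, PMA2, TRK1 and TRK2, and TTCNNGAA upstream of NHX1, PMA1, TRK1 and TRK2. TOK1 had no match of any kind. A match is a string of letters, and binding was not measured in these libraries.

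Among the 10 genes, the sodium pumps had the largest rise upon osmostress. Summed over the 3 rows, ENA stood at 597, 560 and 698 CPM in non-stressed wild type and at 4097, 4141 and 4452 CPM after 15 min in NaCl. Every stressed library was above every non-stressed one. The sum rose 6.84-fold (log2 fold change 2.77, 95% interval 2.59 to 2.95, n = 3 against 3, edgeR quasi-likelihood test against a 2-fold change, adjusted p = 7.46e-19). Row by row, ENA1 rose 8.65-fold, ENA2 6.35-fold and ENA5 5.48-fold, with log2 fold changes of 3.11, 2.67 and 2.45 (SE 0.08, 0.09 and 0.09), which share reads and are not 3 independent rises.

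**Figure D2:**
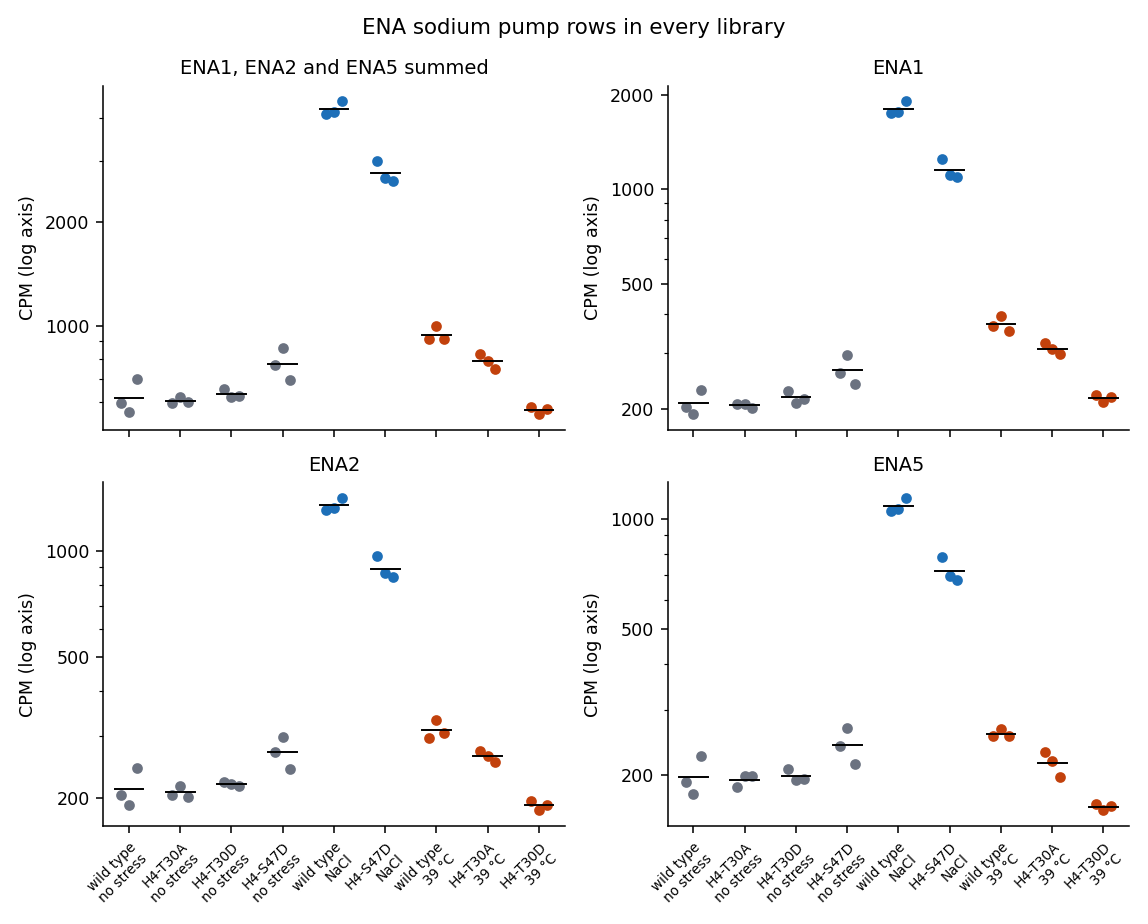
CPM of the ENA rows and of their sum in each library (points) with group means (lines), on a log axis. The sum lies between 4097 and 4452 CPM in osmostressed wild type and between 2617 and 2994 CPM in osmostressed H4-S47D, and heat-stressed H4-T30D (555 to 583 CPM) lies below heat-stressed wild type (914 to 994 CPM).

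In H4-S47D the ENA genes started higher and ended lower. Their sum was at 769, 861 and 696 CPM without stress and at 2994, 2667 and 2617 CPM upon osmostress. The stressed H4-S47D libraries lay below all stressed wild-type libraries, while the non-stressed libraries of the strains overlapped at the lowest H4-S47D value. The sum rose 3.56-fold in the mutant (log2 1.83, 95% interval 1.66 to 2.01, adjusted p = 5.54e-11), a response smaller than that of wild type by 0.94 on the log2 scale (interaction -0.94, 95% interval -1.18 to -0.70, edgeR adjusted p = 2.44e-07). Against wild type, the sum was higher without stress (log2 0.33, adjusted p = 0.00157) and lower under stress (log2 -0.62, adjusted p = 1.03e-06). The interaction was -1.003 for ENA1, -0.94 for ENA2 and -0.87 for ENA5, and each passed the test.

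Of the 10 genes, 4 passed the test against a 2-fold change upon osmostress in wild type, the ENA genes upwards and PMA1 downwards. Over all genes tested 25.3% passed this test, 12.8% higher and 12.5% lower, and the 4 genes lie at 2 loci. Against no change, 9 of 10 passed, beside 76.6% of all genes. In H4-S47D the same 4 genes passed the 2-fold test (18.3% of all genes) and 8 passed against no change (72.5%). The responses of the strains differed for 6 genes, all towards a lower value in H4-S47D: ENA1, ENA2, ENA5, NHX1, PMA1 and TOK1. Of all genes 33.6% differed, 1285 towards a lower and 803 towards a higher value. The median interaction of the 10 genes was -0.54 and that of all genes -0.06. The first median counts the ENA rows, which share reads, as 3 values, while their sum was at -0.94. Without stress 7 genes were higher in H4-S47D, among them the 3 ENA rows, which share reads, and PMA2, which shares reads with PMA1. Of all genes 51.9% differed, 1654 higher and 1571 lower. TRK2 was at -0.18 (edgeR adjusted p = 0.0528). Under osmostress 2 were higher and 5 lower (39.9% of all genes differed, 983 higher and 1492 lower). The higher level of ENA5 without stress (log2 0.28, edgeR adjusted p = 0.00548) was lost without non-stressed H4-S47D replicate 2 (0.20, adjusted p = 0.0571) or wild-type replicate 2 (0.21, adjusted p = 0.053) and in a fit to the groups compared alone (0.30, adjusted p = 0.0738). TRK2 was lower without stress in DESeq2 (-0.23, adjusted p = 0.0172), with DESeq2 size factors (-0.23, adjusted p = 0.0199), and without wild-type replicate 1 (-0.23, adjusted p = 0.0257) or 2 (-0.21, adjusted p = 0.0479) or H4-S47D replicate 2 (-0.27, adjusted p = 0.004). Without osmostressed wild-type replicate 3 or H4-S47D replicate 3, 4 of the 7 calls under osmostress were left.

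Heat gave a smaller rise of the ENA genes. The sum was at 916, 994 and 914 CPM in heat-stressed wild type, above all non-stressed wild-type libraries, and rose 1.53-fold (log2 0.61, 95% interval 0.44 to 0.78). It passed the edgeR test against no change (adjusted p = 1.08e-07) and not that against 2-fold. ENA1 rose by 0.84 on the log2 scale, ENA2 by 0.55 and ENA5 by 0.39, and by 0.87, 0.56 and 0.40 without wild-type replicate 3, in which STL1 was high. The ENA sum upon osmostress was 4.49-fold that upon heat (log2 2.17, adjusted p = 2.53e-19). Osmostress and heat groups differ in agent, temperature and duration.

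No rise of the ENA sum or of the ENA1 row was detected upon heat in H4-T30D. Its ENA sum was at 657, 622 and 626 CPM at 30°C and at 583, 555 and 574 CPM at 39°C, so that all heat-stressed libraries lay below all non-stressed ones of the strain and below all heat-stressed wild-type libraries. The change of the sum was -0.15 on the log2 scale (95% interval -0.32 to 0.01, edgeR test against no change, adjusted p = 0.0921). As deposited, the ENA1 row changed by -0.01 (95% interval -0.17 to 0.15). The ENA2 row fell by 0.20 (adjusted p = 0.0287, same test) and the ENA5 row by 0.28 (adjusted p = 0.00362). These rows share reads, and their split moved: ENA5 counts per ENA1 count were 0.907 to 0.927 without stress and 0.754 to 0.759 upon heat. The rows therefore do not give the change of each copy by itself. The response of the sum was lower than in wild type by 0.76 (interaction -0.76, 95% interval -1.003 to -0.52, adjusted p = 5.14e-05), and its level under heat was lower by 0.72 (log2 -0.72, adjusted p = 2.51e-07). The levels of the non-stressed strains gave a log2 difference of 0.04 (95% interval -0.13 to 0.21). Without wild-type replicate 3 the interaction of ENA1 was -0.88, against -0.84 with it.

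In H4-T30A the ENA sum was at 595, 622 and 601 CPM without stress and at 825, 790 and 748 CPM upon heat. All heat-stressed libraries lay above the non-stressed ones and below those of heat-stressed wild type. The sum rose by 0.38 on the log2 scale (adjusted p = 1.36e-04 against no change), and the difference of responses was -0.23 (95% interval -0.47 to 0.01, edgeR adjusted p = 0.48). Under heat, ENA1 (log2 -0.26, adjusted p = 0.0427) and ENA5 (log2 -0.27, adjusted p = 0.0476) were below wild type, but the sum did not pass (log2 -0.26, adjusted p = 0.0577), nor did either row under most other settings. Leaving out any of heat-stressed wild-type replicates 1 and 2 and H4-T30A replicates 2 and 3 ended both calls, with adjusted p between 0.0871 and 0.276. Leaving out H4-T30A replicate 1 ended that of ENA1 (0.0612) and wild-type replicate 3 that of ENA5 (0.0652).

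No gene of the 10 passed the 2-fold test upon heat in any strain, where 31.1% of all genes passed in wild type (15.8% higher, 15.4% lower), 30.0% in H4-T30A and 26.8% in H4-T30D. Against no change 8 passed in wild type (78.2% of all genes), 5 in H4-T30A (77.3%) and 7 in H4-T30D (75.0%). Of the differences between the responses, none passed in H4-T30A (0.483% of all genes). In H4-T30D 5 passed, all towards a lower value: ENA1, ENA2, ENA5, NHA1 and TRK1 (14.0% of all genes, 597 lower and 273 higher). Without stress none of the 10 differed from wild type in H4-T30A (1.39% of all genes) or H4-T30D (31.5%). Under heat 2 were lower in H4-T30A (6.64% of all genes differed, 282 lower and 130 higher). In H4-T30D 3 were lower (13.7%, 540 lower and 311 higher). All of these were ENA rows, which share reads. Between the stressed wild-type groups, 9 of 10 differed (62.9% of all genes), NHA1 being the exception. Of these, the lower level of TRK1 upon osmostress (log2 -0.29, edgeR adjusted p = 0.00352) was lost without osmostressed wild-type replicate 3 (-0.14, adjusted p = 0.119). Without heat-stressed wild-type replicate 1, NHA1 differed as well (-0.33, adjusted p = 0.024, against -0.20 with it), and with library totals alone PMA2 was lost (-0.15, adjusted p = 0.171) and TRK1 turned (0.0432). Among the non-stressed strains, NHA1 was higher in H4-T30D without wild-type replicate 2 (log2 0.49, adjusted p = 0.00317), with upper-quartile factors (0.32, adjusted p = 0.0463) and with library totals alone (0.48, adjusted p = 0.0178). NHX1 was lower in non-stressed H4-T30A without wild-type replicate 1 (-0.31, adjusted p = 0.045) and in DESeq2 (-0.31, adjusted p = 0.0348).

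**Figure D3:**
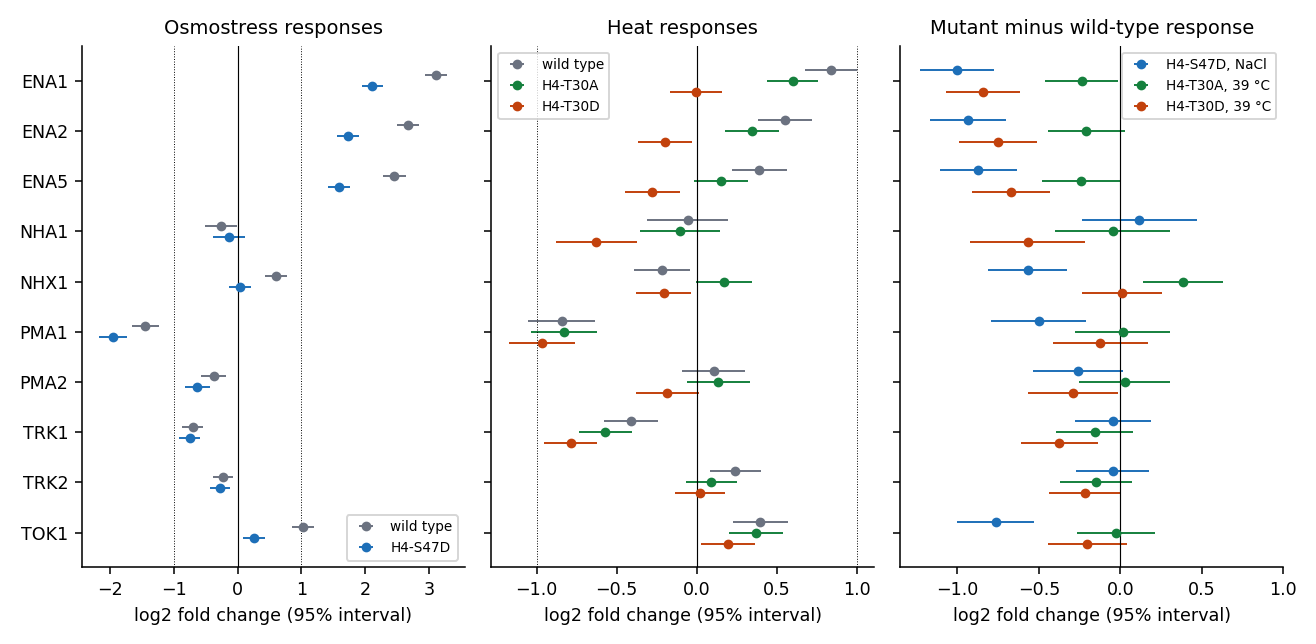
Log2 fold changes (points) with 95% intervals (lines) of the 10 genes upon osmostress and heat, and the difference between each mutant's response and that of wild type. Dotted lines mark a 2-fold change. The ENA rows lie furthest right and PMA1 furthest left upon osmostress, and the H4-S47D differences reach from -1.003 for ENA1 to 0.12 for NHA1.

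PMA1, on the minus strand of chromosome VII (479910 to 482666), was the most abundant of the 10 and the only one that fell by more than 2-fold. It stood at 11061, 9250 and 12789 CPM in non-stressed wild type and at 3856, 3976 and 4306 CPM upon osmostress, a fall to 0.367 of its level (log2 -1.45, 95% interval -1.66 to -1.24, edgeR against 2-fold, adjusted p = 5.59e-05). The groups did not overlap. In H4-S47D it stood at 13927, 15102 and 12501 CPM without stress and at 3991, 3346 and 3421 CPM upon osmostress (log2 -1.95, adjusted p = 2.8e-10). The fall was larger than in wild type by 0.50 (interaction -0.50, 95% interval -0.79 to -0.21, adjusted p = 0.00761). That call was lost in a fit to the 4 groups compared alone (-0.43, adjusted p = 0.0957). The higher level of H4-S47D without stress (log2 0.33, adjusted p = 0.00785) was lost without non-stressed wild-type replicate 2 (0.21, adjusted p = 0.0889) and in a fit to the groups compared alone (0.35, adjusted p = 0.137), and under osmostress the strains differed by -0.17 (95% interval -0.38 to 0.03, adjusted p = 0.173). Upon heat PMA1 fell by 0.84 in wild type, by 0.83 in H4-T30A and by 0.97 in H4-T30D, each past the edgeR test against no change and not past 2-fold, and the differences between responses were 0.01 (95% interval -0.28 to 0.31) and -0.12 (-0.41 to 0.17).

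PMA2 (chromosome XVI, 482843 to 485686, plus strand) encodes a second, minor proton ATPase, the same as Pma1 at 824 of 916 aligned residues. Its row cannot be read without that of PMA1. The genes share 38 windows of 50 bases in a pair of stretches, given here on the coding strand of PMA1 from chrVII:480751-480812 and chrVII:480349-480422 (minus strand).
Bases 1855 to 1916 of PMA1: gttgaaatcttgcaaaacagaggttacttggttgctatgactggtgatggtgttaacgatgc
Bases 2245 to 2318 of PMA1: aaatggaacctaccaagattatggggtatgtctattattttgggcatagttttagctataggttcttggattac
If PMA1 were evenly covered and its shared reads placed evenly, these stretches alone would put 0.682% of the PMA1 count into the PMA2 row. In non-stressed wild type that estimate gave 1338, 1039 and 1047 reads, and the PMA2 row held 1397, 995 and 951. The row was thus 0.908 to 1.04 times the estimate in that group, 0.882 to 1.152 times in all non-stressed libraries, 1.60 to 2.13 times in stressed wild-type, H4-T30A and H4-T30D libraries and 2.58 to 2.99 times in osmostressed H4-S47D. The even placing and coverage behind the estimate were not tested, so no level of PMA2 itself is given. As deposited, the row fell by 0.37 on the log2 scale upon osmostress in wild type (edgeR test against no change, adjusted p = 0.001) and by 0.63 in H4-S47D (adjusted p = 6.81e-07), and was higher in H4-S47D without stress (log2 0.56, adjusted p = 1.40e-05) and under osmostress (log2 0.30, adjusted p = 0.0148). The PMA1 values of these 4 comparisons were -1.45, -1.95, 0.33 and -0.17.

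**Figure D4:**
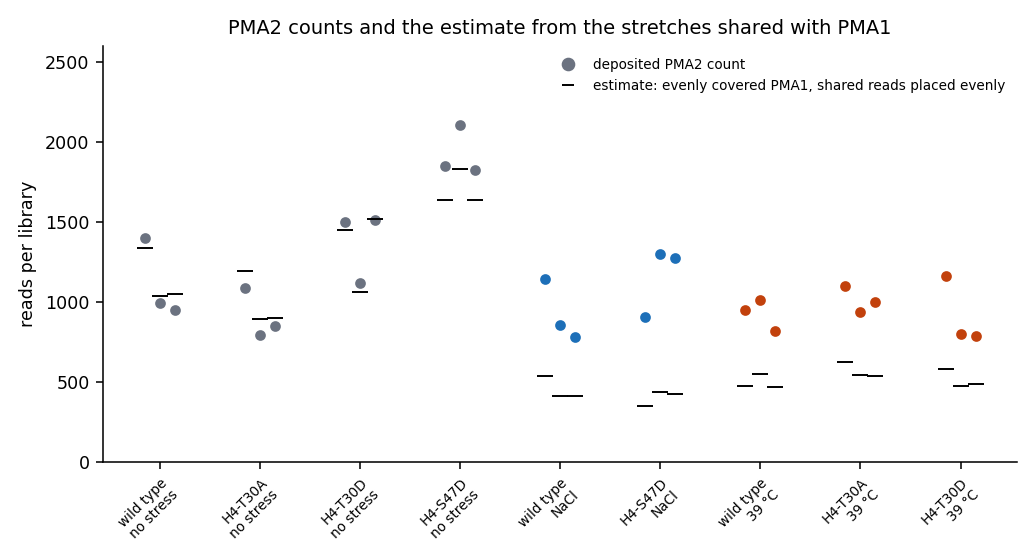
PMA2 counts of each library (points) and the reads that the stretches shared with PMA1 would place in the row if PMA1 were evenly covered and shared reads evenly placed (dashes). In non-stressed libraries the points are 0.882 to 1.152 times the dashes, and in stressed libraries 1.60 to 2.99 times.

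Of the potassium genes, TOK1 rose and TRK1 fell upon osmostress. TOK1, the outward potassium channel (chromosome X, 254737 to 256812, minus strand), was at 94.2, 104 and 128 CPM in non-stressed wild type and at 211, 221 and 227 CPM in NaCl, without overlap. It rose 2.03-fold (log2 1.02, 95% interval 0.85 to 1.19), past the edgeR test against no change (adjusted p = 2.22e-12) and not past 2-fold (adjusted p = 0.588). Without non-stressed wild-type replicate 3 it passed 2-fold as well (log2 1.1525, adjusted p = 0.0298), as it did with library totals alone (1.30, adjusted p = 9.57e-06). In H4-S47D, TOK1 was at 158, 165 and 146 CPM without stress, above all non-stressed wild-type libraries (log2 0.53, adjusted p = 3.94e-06), and at 191, 180 and 190 CPM upon osmostress, a rise of 0.26 (adjusted p = 0.00621). The responses differed by -0.76 (95% interval -1.001 to -0.53, adjusted p = 6.16e-06). Under osmostress TOK1 was lower than in wild type (log2 -0.23, adjusted p = 0.0229), a call lost with upper-quartile factors (-0.10, adjusted p = 0.317) and turned with library totals alone (0.02, adjusted p = 0.787). It was also lost without osmostressed H4-S47D replicate 2 or 3 (adjusted p = 0.0966 and 0.0573) or wild-type replicate 2 or 3 (0.0591 and 0.0767). Upon heat TOK1 rose by 0.40 in wild type, 0.37 in H4-T30A and 0.19 in H4-T30D.

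TRK1, the main potassium uptake system (chromosome X, 173599 to 177306, minus strand), was at 70.1, 68.6 and 61.9 CPM in non-stressed wild type and at 45.2, 44.2 and 33.6 CPM upon osmostress. It fell by 0.70 on the log2 scale in wild type (adjusted p = 5.46e-09, edgeR against no change) and by 0.75 in H4-S47D (adjusted p = 1.52e-09), with no overlap between stressed and non-stressed libraries of either strain. The responses differed by -0.04 (95% interval -0.28 to 0.19). Upon heat TRK1 fell by 0.41 in wild type, 0.57 in H4-T30A and 0.79 in H4-T30D. The H4-T30D response was lower than that of wild type by 0.37 (interaction -0.37, 95% interval -0.61 to -0.14, adjusted p = 0.0296). This call was lost with DESeq2 size factors (-0.30, adjusted p = 0.0828), in DESeq2's own test (adjusted p = 0.0682), with upper-quartile factors (0.0659), in a fit to the 4 groups alone (0.118), and when 1 of 7 of the 12 libraries was left out (adjusted p up to 0.0988), namely non-stressed wild-type replicate 3, heat-stressed wild-type replicate 2, any non-stressed H4-T30D replicate, and heat-stressed H4-T30D replicate 1 or 3.

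TRK2, which encodes a second potassium transporter (chromosome XI, 527815 to 530484, plus strand), moved little. It was at 86.2, 88.7 and 102 CPM in non-stressed wild type, at 77.2, 77.7 and 81.9 CPM upon osmostress and at 113, 115 and 98.4 CPM upon heat. The osmostressed libraries lay below all non-stressed ones and the heat-stressed ones overlapped with them. TRK2 fell by 0.23 upon osmostress (adjusted p = 0.0097, edgeR against no change) and rose by 0.24 upon heat (adjusted p = 0.00599). With library totals alone, which moved the median of all genes by 0.27 in wild type and 0.35 in H4-S47D, the osmostress value turned to 0.06 in wild type and from -0.27 to 0.09 in H4-S47D. It was lower in osmostressed H4-S47D than in wild type (log2 -0.22, adjusted p = 0.0226), which was lost with upper-quartile factors (-0.09, adjusted p = 0.343), in a fit to the groups compared alone (-0.16, adjusted p = 0.062) and without H4-S47D replicate 1 or 3 or wild-type replicate 3 (adjusted p = 0.0772, 0.1 and 0.0797), and turned with library totals alone (0.03, adjusted p = 0.694). Trk1 and Trk2 are the same at 497 of 885 aligned residues and their genes share no 50-base window.

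**Figure D5:**
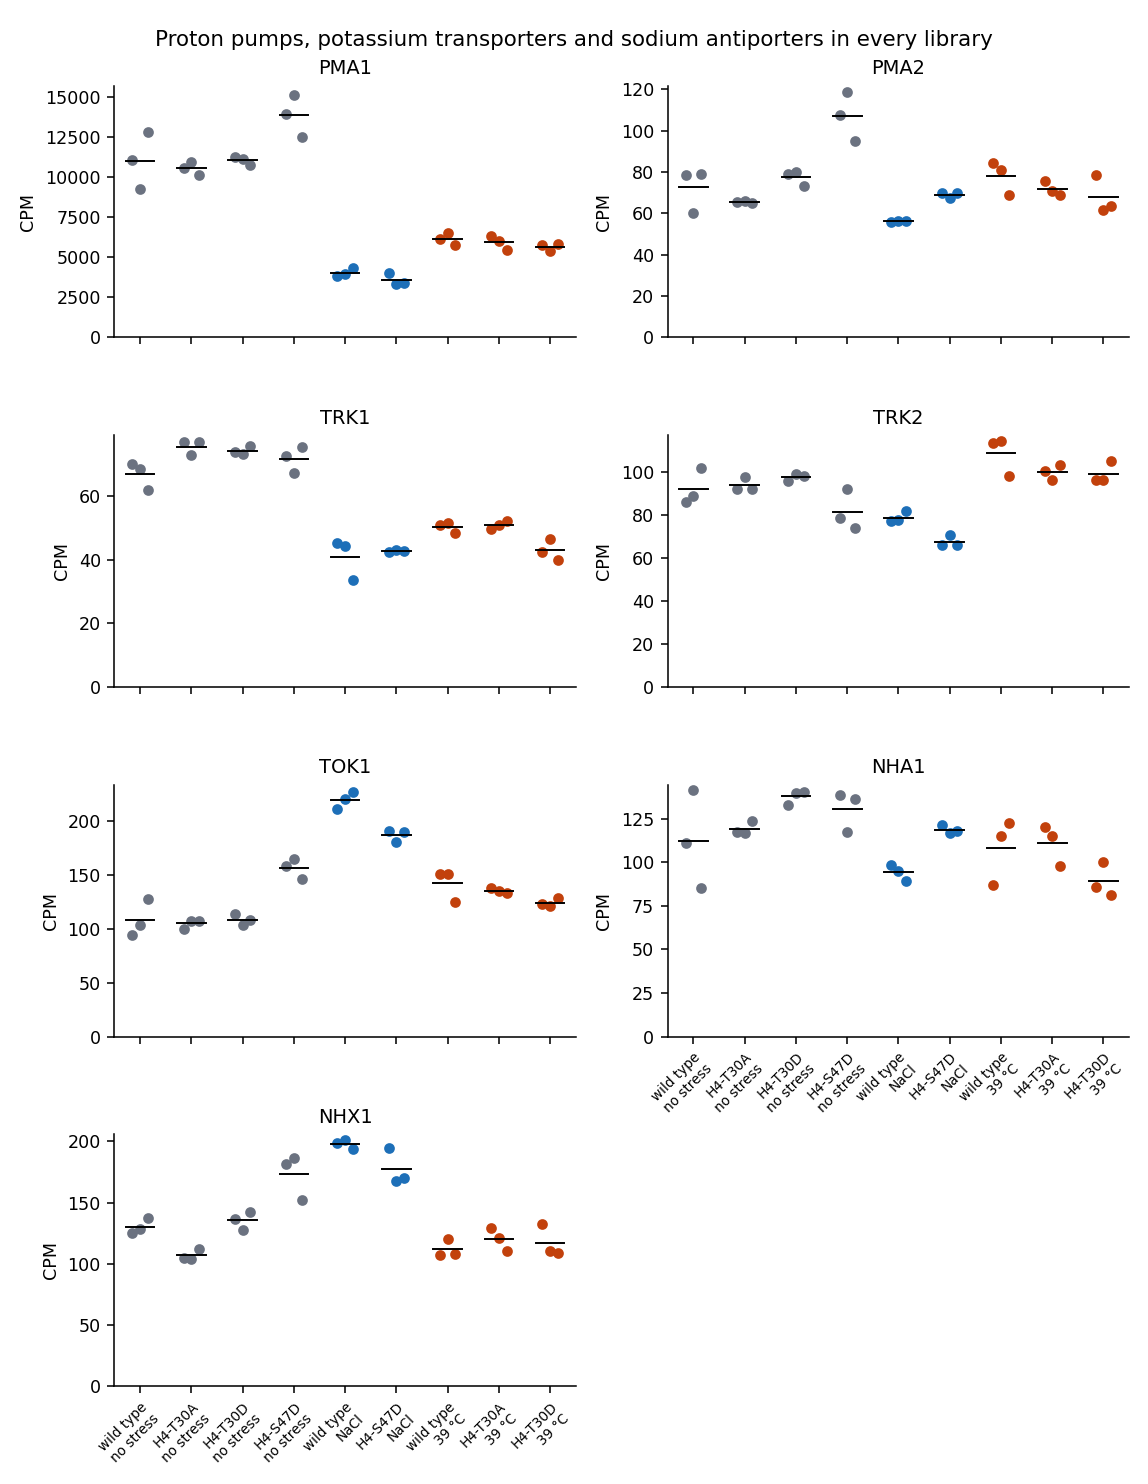
CPM of the proton pump, potassium and antiporter genes in each library (points) with group means (lines), each panel from 0 on its own scale. PMA1 falls from 9250 to 12789 CPM in non-stressed wild type to 3856 to 4306 CPM upon osmostress, TOK1 and NHX1 lie higher in osmostressed than in non-stressed wild type without overlap, and NHA1 varies between 85.2 and 142 CPM within non-stressed wild type.

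The antiporters behaved differently from each other. NHX1, the endosomal exchanger (chromosome IV, 1367485 to 1369386, plus strand), was at 125, 129 and 137 CPM in non-stressed wild type and at 198, 201 and 194 CPM upon osmostress, without overlap, and rose by 0.60 on the log2 scale (95% interval 0.43 to 0.77, edgeR against no change, adjusted p = 1.8e-07). In H4-S47D it was at 182, 186 and 152 CPM without stress and at 195, 168 and 170 CPM upon osmostress, and these groups overlapped. The change in the mutant was 0.03 (95% interval -0.14 to 0.20), the responses differed by -0.57 (95% interval -0.81 to -0.33, adjusted p = 4.35e-04), and NHX1 was higher in non-stressed H4-S47D than in wild type (log2 0.41, adjusted p = 1.5e-04). Upon heat it fell by 0.22 in wild type and by 0.21 in H4-T30D, and in H4-T30A changed by 0.17 (95% interval -0.01 to 0.34).

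NHA1, the antiporter of the plasma membrane (chromosome XII, 418437 to 421394, plus strand), had the widest spread of the 10 genes between the replicates of non-stressed wild type. It was at 111, 142 and 85.2 CPM in non-stressed wild type (1968, 2332 and 1023 counts), a coefficient of variation of 25.1%, and at 98.6, 95.2 and 89.6 CPM upon osmostress. The osmostressed values fell within the non-stressed range, and the log2 change was -0.26 (95% interval -0.51 to -0.01, edgeR against no change, adjusted p = 0.0588). In H4-T30D it was at 133, 140 and 141 CPM without stress and at 86.0, 100 and 81.3 CPM upon heat, without overlap, and fell by 0.63 (adjusted p = 3.63e-05), while the wild-type change was -0.06 (95% interval -0.31 to 0.19). The responses differed by -0.57 (95% interval -0.92 to -0.21, adjusted p = 0.0272). This call was lost with DESeq2 size factors (-0.49, adjusted p = 0.0534), in a fit to the 4 groups alone (-0.48, adjusted p = 0.156), and in 8 of 12 fits that left out 1 library (adjusted p up to 0.0855), namely non-stressed wild-type replicate 3, heat-stressed wild-type replicate 2 or 3, any non-stressed H4-T30D replicate, and heat-stressed H4-T30D replicate 1 or 3. In osmostressed H4-S47D, NHA1 was higher than in wild type (log2 0.33, adjusted p = 0.0319), a call lost without any H4-S47D replicate or wild-type replicate 2 or 3 (adjusted p from 0.051 to 0.105).

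Levels can be ordered between genes only per length of the reading frame. In non-stressed wild type PMA1 was at 4001 ± 642 CPM per kilobase (SD, n = 3), followed by NHX1 at 68.6 ± 3.28, the ENA rows at 60.4 ± 7.39 to 64.8 ± 8.46, TOK1 at 52.3 ± 8.43, NHA1 at 38.0 ± 9.53, TRK2 at 34.6 ± 3.22 and TRK1 at 18.0 ± 1.18. PMA2 is left out and the ENA rows are given no order among themselves, since their values depend on where shared reads were placed. From NHX1 to TRK2 the ranges of neighbours overlapped, and those of PMA1 and NHX1 and of TRK2 and TRK1 did not. In osmostressed wild type the order was PMA1 (1468 CPM per kilobase), the ENA rows (331 to 549), TOK1 (106), NHX1 (104), NHA1 (31.9), TRK2 (29.6) and TRK1 (11.1). PMA1 was first and TRK1 last in all 9 groups.

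The pathway around these transporters was followed in 6 lists, which were drawn up with earlier results of these data known. Genes said to rise or fall in them passed the test against 2-fold in osmostressed wild type. Their shares are to be set beside the 25.3% of all genes that passed it. Of 6 other monovalent cation transporters, 1 rose past 2-fold: KHA1, which encodes a potassium-proton antiporter and neighbours TOK1 (log2 1.44, edgeR adjusted p = 2.88e-05). Of 3 small proteins of the plasma membrane, PMP2, a proteolipid bound to Pma1, fell (log2 -1.93, adjusted p = 0.00161). Of 11 genes that act on Trk1, Pma1 or ENA1, which are kinases, phosphatases, inhibitors of phosphatases and the salt tolerance genes HAL1 and HAL9, 4 rose: PTK2, a kinase that activates Pma1 (log2 2.94, adjusted p = 2.28e-20), PPZ2 (1.96), a phosphatase gene, VHS3 (1.89), whose product inhibits that phosphatase, and HAL1 (1.39, adjusted p = 0.00214).

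Of 7 genes of the calcineurin pathway, 3 rose: RCN2, a regulator of calcineurin (log2 2.93, edgeR adjusted p = 2.7e-20), PMC1, the vacuolar calcium pump (1.90, adjusted p = 2.57e-15), and CMP2, a catalytic subunit (1.31, adjusted p = 3.01e-05). Crz1's own gene was at a log2 change of 0.49, past the test against no change only. Of 9 regulators of ENA1 transcription, NRG1 (log2 3.02, adjusted p = 1.21e-17) and NRG2 (1.49, adjusted p = 3.53e-04), which encode repressors, rose and MIG2 (-1.63, adjusted p = 1.37e-06), another repressor gene, fell. None of 15 subunits of the vacuolar proton ATPase passed 2-fold, and 9 passed against no change, 8 of them lower and STV1, the Golgi form of its largest subunit, higher (log2 0.57). The medians of the 6 lists were, in this order, 0.75, -1.24, 1.13, 0.49, 0.25 and -0.17, beside 0.08 for all genes.

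Over the 9 group means of log2 CPM, the genes most like ENA1 were ENA2 (Pearson's r = 0.996), YPL229W (0.993), ENA5 (0.989), YHR033W (0.984) and STL1 (0.983). Those most like PMA1 were NRM1 (r = 0.989), BOL3 (0.988), MVD1 (0.982), ERG11 (0.981) and ECM33 (0.980). These are descriptions over 9 points that share libraries and scaling. ENA1 also shares 2906 of its 3325 windows with ENA2 and 2572 with ENA5. Reads placed between these rows tie their values together, so their r with ENA1 does not show a likeness of separate genes. Among the 10 genes, ENA1 and TOK1 had r = 0.923 and ENA1 and PMA1 r = -0.788.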

How the data were processed

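RNA was poly(A)-selected and made into stranded TruSeq libraries, sequenced with 50 bp single-end reads. Per the study methods and the submitters' processing notes, the authors mapped reads with TopHat2 2.1.0, counted them per gene of the Ensembl R64-1-1 annotation with featureCounts 1.5.1, and deposited the counts without normalization. The strand setting is not given in the sources used here. Reads that match several genes were counted at 1 of them, as the ENA and ASP3 rows show, which spreads signal between near-identical copies.

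Genes kept by filterByExpr (minimum count 10) were scaled by TMM and fitted in edgeR 4.0.16 (limma 3.58.1, R 4.3.3) with 1 mean per group over all 27 libraries (common dispersion 0.00653). For the 5 stress responses glmTreat was used with a threshold of 1 on the log2 scale, and for the other 10 comparisons glmQLFTest against 0. P-values were adjusted over all 6209 genes (Benjamini-Hochberg), and calls were made under 0.05. The separate fit of the ENA sum replaced the 3 rows by their total. The methods call the replicates biological, and the labels do not say that they were separate cultures. P-values set differences of group means against the spread between replicate libraries, estimated over all 27 libraries.

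The 10 genes, the lists and the tests were chosen with earlier results of these data known. Besides the 10 genes and the checks, the text names the list genes past 2-fold in the wild-type osmostress response, at most 3 of a list by size of change, and the 5 most like ENA1 and PMA1 by Pearson's r of log2 CPM (prior count 2). HAL1, HAL9, CRZ1, STV1, the ASP3 copies and the list genes of the closing section were named after their values were seen.

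Sequences and places are from RefSeq's R64 genome, matched by locus tag (10 of 10 genes). Windows of 50 bases that overlap a reading frame by at least 1 base were looked up on both strands of the genome. Alignments used Biopython 1.88, translations BLOSUM62, and plots matplotlib 3.10.9.

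Alternatives were DESeq2 1.42.0's size factors and test, upper-quartile factors, library totals, other count filters, the replicate number as a block, the compared groups alone, summed ENA rows, a test against 0, levels per unique window, and each library left out. The edgeR fit was first tested on simulated counts of known fold changes. This covered the wild-type osmostress response, the H4-S47D interaction and H4-S47D against wild type without stress. The heat comparisons and the alternatives were not tested in this way.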

Additional observations from a re-analysis of the deposited data

Results flagged for a closer look

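The responses of 2 mutants differed from that of wild type in an edgeR test of the difference itself, adjusted over all genes. Upon osmostress in H4-S47D, the difference of responses (log2) was -1.003 for ENA1, -0.94 for ENA2, -0.87 for ENA5, -0.57 for NHX1, -0.50 for PMA1 and -0.76 for TOK1. The ENA rows share reads and count as 1 result. The PMA1 value was the 1 of these that did not pass in a fit to the 4 groups compared alone.

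Upon heat in H4-T30D, the difference was -0.84 for ENA1, -0.75 for ENA2, -0.67 for ENA5, -0.57 for NHA1 and -0.37 for TRK1. The ENA values passed in each of 12 fits that left out 1 library, whereas that of NHA1 passed in 4 and that of TRK1 in 5. With 3 libraries a group, no test for a single library apart from its group was run.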

How the results depend on the processing

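Of the 150 values and calls for single genes, 148 kept their side of the threshold, and their direction where called, without a count filter, 148 with a minimum count of 50, 146 in DESeq2, 145 with DESeq2 size factors, 144 with upper-quartile factors, 142 in fits to the compared groups alone and 127 with library totals alone. Library totals moved the median of all genes by 0.27 upon osmostress in wild type, 0.35 in H4-S47D, 0.33 between the stressed wild-type groups, 0.18, 0.11 and 0.20 for non-stressed H4-S47D, H4-T30A and H4-T30D against wild type, 0.25 for osmostressed H4-S47D against wild type, 0.12 for heat-stressed H4-T30A against wild type, and by -0.18 and -0.12 for the H4-T30D heat response and its difference from wild type. Under them TRK1 between osmostress and heat (0.0432), and TRK2 (0.0311) and TOK1 (0.0213) in osmostressed H4-S47D against wild type, reversed without passing the test, as did TRK2 upon osmostress in wild type (0.06) and in H4-S47D (0.09), whose falls had passed against no change. In all 23 values changed sign under library totals, 5 of them past the test against 0 before, and 1 to 8 under each of 5 other settings, none of them past it before, as were none of the 64 on leaving out a library. Also under library totals TOK1 passed 2-fold upon osmostress in wild type, and 10 genes instead of 0 were higher in non-stressed H4-T30D. Upon heat, 9 instead of 5 had a response in H4-T30D that differed from wild type towards a lower value. For genes that fell in both strains, such as TRK1, this was a larger fall. Upon heat in H4-T30D, 1 gene instead of 0 (PMA1) changed by more than 2-fold.

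The 2 calls in heat-stressed H4-T30A against wild type became 0 with DESeq2 size factors, upper-quartile factors, library totals, no filter, a minimum count of 50, summed ENA rows and the compared groups alone, 1 in DESeq2, and 0 to 1 when a library was left out. The 5 genes whose H4-T30D response differed from wild type towards a lower value became 3 with DESeq2 size factors. They became 3 in the compared groups alone, and 3 to 5 when a library was left out. Without stress, 1 gene instead of 0 differed in H4-T30D with upper-quartile factors, 1 in H4-T30A in DESeq2, and 0 to 1 in either strain when a library was left out. The 7 calls in osmostressed H4-S47D against wild type ranged from 4 to 7 on leaving out a library. The 7 calls in non-stressed H4-S47D ranged from 5 to 8 over all settings, and the 9 between the stressed wild-type groups from 7 to 10. Tested against 0 instead of 2-fold, 9 genes changed upon osmostress in wild type, 8 in H4-S47D, and upon heat 8 in wild type, 5 in H4-T30A and 7 in H4-T30D. The causes of these moves were not tested, beyond what each setting changes by its construction.

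With the replicate number as a block, the calls in heat-stressed H4-T30A against wild type became 0 (ENA1 -0.26, adjusted p = 0.054, and ENA5 -0.27, adjusted p = 0.0608), and no other call changed. Over 108 pairs of same-numbered libraries the correlation of deviations ranged from -0.405 to 0.276. The median was 0.000901, and 13 were over 0.1. All strains were pooled and libraries with different numbers were not compared, so a pairing by number within a strain was not tested. Levels per kilobase of windows found once in the genome put non-stressed wild-type ENA1 at 497 and ENA5 at 592.5 CPM, far above 63.5 and 60.4, since shared reads were counted too, and ENA2, with 0 such windows, has no such value.

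Replicates differed beyond counting error, and with 3 replicates a group small differences stay unseen. For the ENA rows and PMA2, the sharing of reads between copies limits the values.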

Other observations

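Some genes in the lists around the transporters had responses that differed between the strains. In H4-S47D only the list of 11 genes held a larger share of them than all genes did, with 3 lower and 3 higher. In H4-S47D upon osmostress, 2 of 6 other monovalent cation transporters had a lower response than in wild type by the edgeR interaction test (33.6% of all genes differed), KHA1 (log2 -0.88, adjusted p = 4.9e-06) and VNX1, a vacuolar sodium-proton exchanger (-0.55, adjusted p = 0.0279). In the calcineurin pathway 2 of 7 were lower, PMC1 (-0.59, adjusted p = 2.34e-06) and RCN2 (-0.42, adjusted p = 0.00478). Of 9 regulators of ENA1 transcription, NRG1 (-1.08, adjusted p = 1.21e-06) and HOG1 (-0.34, adjusted p = 0.00643) were lower and MIG2 was higher (0.62, adjusted p = 0.00261). Among the 11 genes that act on Trk1, Pma1 or ENA1 (kinases, phosphatases, their inhibitors, HAL1 and HAL9), 3 were lower, PPZ1 (-0.71), HAL1 (-0.64) and PTK2 (-0.29), and 3 were higher, VHS3 (0.62), SIS2 (0.51) and PPZ2 (0.33). VPH1, the vacuolar form of the largest subunit of the proton ATPase (-0.69, adjusted p = 1.91e-05), its Golgi form STV1 (-0.46) and VMA1 (-0.41) were the 3 of 15 subunits that differed, and PMP3 (-0.43) was the 1 of 3 small membrane proteins.

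In H4-T30D upon heat (14.0% of all genes differed), 5 of the 11 genes that act on Trk1, Pma1 or ENA1 had a lower response and none a higher one: PTK2 (log2 -0.69, adjusted p = 1.1e-04), HAL1 (-0.61), HAL5 (-0.47), HRK1 (-0.39) and PPZ2 (-0.35). CRZ1 (-0.51, adjusted p = 0.0182) and PMC1 (-0.28) of the calcineurin pathway and NRG1 (-0.62, adjusted p = 0.00673) and SKO1 (-0.42, adjusted p = 0.0322) among the regulators were also lower. Of the 15 proton ATPase subunits VMA7 was higher (0.28) and STV1 lower (-0.30), and no cation transporter or small membrane protein differed. In H4-T30A no gene of any list differed by edgeR, where 0.483% of all genes did.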
